A study of Mus musculus with 4 samples.

Results

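The Mef2 transcription factors and the class IIa histone deacetylases were followed through the open chromatin of 4 mouse muscles. The members were 8 genes, Mef2a, Mef2b, Mef2c, Mef2d, Hdac4, Hdac5, Hdac7 and Hdac9, and a peak was taken as theirs when the authors' annotation gave it 1 of these gene names. Of the 120839 peaks in the 4 lists, 178 carried a member's name, 98 for the Mef2 factors and 80 for the deacetylases. Peaks of different lists that overlapped by at least 1 bp were joined, which gave 77 member regions of 53883 merged regions in all.

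Accessible DNA was tagged by the Tn5 transposase and sequenced (ATAC-seq). Fast, glycolytic limb muscle was represented by the quadriceps (Quad) and the extensor digitorum longus (EDL), slow oxidative limb muscle by the soleus (Sol), and trunk muscle by the diaphragm (Dia). By the labels, all came from wild type C57BL/6 mice. The study's methods give the strain as C57BL/6J and describe males bought as young adults, with no other treatment named for these 4 libraries, and the age at dissection was not given in the sources used here. Each muscle was represented by 1 library, labelled as pooled, with the number of animals not stated, so no test between muscles was possible and each difference below describes these libraries.

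MEF2 proteins are MADS-box factors that bind an A/T-rich site in the promoters and enhancers of contractile, metabolic and signalling genes and act with the myogenic bHLH factors. Class IIa deacetylases have little enzymatic activity of their own. They bind the MADS/MEF2 domain, bring corepressors to it, and leave the nucleus with 14-3-3 proteins when kinases of the CaMK and PKD families phosphorylate them. In skeletal muscle this switch is known for linking nerve activity and exercise to the slow, oxidative gene programme.

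The EDL, Quad, Sol and Dia lists had 30136, 40337, 28784 and 21582 peaks. Peak Score is the authors' signal per peak, a tag count scaled by library size, and the steps between low scores gave inferred depths from 78.1 to 105 M tags if scores are per 10 M (M, mega). The lowest score was between 3.06 and 3.63. To place a peak within its own library, its score percentile was used, where 100 is the highest score of the list. Of 7 skeletal muscle markers, all 7 had a promoter peak in the EDL list, 6 in Quad and Sol and 5 in Dia. Of 5 endothelial markers, 4, 5, 4 and 2 did in the order EDL, Quad, Sol and Dia, and of 2 smooth muscle markers 1, 2, 0 and 0. None of the 4 leukocyte, 3 fibroblast, 2 Schwann cell or 2 adipocyte markers, nor Pax7, had a promoter peak in any list. In bulk tissue, a change in the share of a cell type and a change in openness within a cell type cannot be told apart, and the part of other cell types in the results below was not tested.

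The sequences that carry the main patterns are shown first, from RefSeq GRCm38.p6 (the assembly behind mm10), written 5′ to 3′ with matches to the named motifs in capitals. The first lines are at Mef2d. The 250 bases upstream of its start (chr3:88142122-88142371, plus strand) overlap a promoter peak called only in EDL, as was the intergenic peak that follows (chr3:88138351-88138559, plus strand). The sequence farther upstream (chr3:88133383-88133591, plus strand) is the EDL peak of a region called in every list. The capitals mark an E-box, CAGCTG, the site of myogenic bHLH factors.
Mef2d promoter: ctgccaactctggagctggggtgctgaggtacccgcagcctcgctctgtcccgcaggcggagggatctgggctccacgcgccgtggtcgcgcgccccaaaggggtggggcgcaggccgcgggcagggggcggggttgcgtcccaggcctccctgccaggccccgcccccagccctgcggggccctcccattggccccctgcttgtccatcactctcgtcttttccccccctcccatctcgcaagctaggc
Mef2d EDL peak: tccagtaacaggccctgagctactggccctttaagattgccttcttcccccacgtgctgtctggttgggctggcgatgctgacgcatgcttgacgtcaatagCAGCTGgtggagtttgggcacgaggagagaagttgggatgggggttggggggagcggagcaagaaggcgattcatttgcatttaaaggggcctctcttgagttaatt
Mef2d shared peak: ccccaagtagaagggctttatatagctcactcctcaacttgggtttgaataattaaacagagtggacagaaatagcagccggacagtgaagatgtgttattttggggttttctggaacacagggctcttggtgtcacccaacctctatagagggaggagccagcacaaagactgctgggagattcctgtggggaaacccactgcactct

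The next lines show the 250 bases upstream of Hdac5 (chr11:102230173-102230422, minus strand), a promoter open in every list, and the EDL peak of an intronic Mef2c region called in EDL and Quad only (chr13:83603970-83604178, plus strand). Here the capitals mark MEF2 motif matches.
Hdac5 promoter: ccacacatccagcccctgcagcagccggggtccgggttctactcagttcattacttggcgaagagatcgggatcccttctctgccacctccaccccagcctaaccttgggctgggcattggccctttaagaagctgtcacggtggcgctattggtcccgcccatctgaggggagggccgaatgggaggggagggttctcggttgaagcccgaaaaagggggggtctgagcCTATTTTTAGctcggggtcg
Mef2c intron peak: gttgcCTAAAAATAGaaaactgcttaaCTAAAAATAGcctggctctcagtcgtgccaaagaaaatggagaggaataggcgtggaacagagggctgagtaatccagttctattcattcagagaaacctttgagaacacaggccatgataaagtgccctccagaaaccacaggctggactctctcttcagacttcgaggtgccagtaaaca

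The last lines show the Hdac4 intron 2 peak of EDL, from a region called in every list (chr1:92099638-92099846, plus strand), and the Quad peak of a region upstream of Mef2a called in EDL and Quad (chr7:67444708-67444896, plus strand), both with E-boxes in capitals.
Hdac4 shared intron peak: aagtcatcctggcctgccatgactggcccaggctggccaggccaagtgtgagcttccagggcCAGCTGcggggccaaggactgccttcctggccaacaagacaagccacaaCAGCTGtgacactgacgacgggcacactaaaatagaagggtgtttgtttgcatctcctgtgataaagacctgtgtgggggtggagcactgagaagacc
Mef2a upstream peak: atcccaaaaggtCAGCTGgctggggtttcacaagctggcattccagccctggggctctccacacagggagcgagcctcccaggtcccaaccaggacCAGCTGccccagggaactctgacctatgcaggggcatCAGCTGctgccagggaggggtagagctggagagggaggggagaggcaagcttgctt

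The number of member peaks was 50 for EDL, 59 for Quad, 39 for Sol and 30 for Dia. Relative to list length this was 1.66 peaks per 1000 for EDL, 1.46 for Quad, 1.35 for Sol and 1.39 for Dia, so the members' share of a list differed less than their number. The Quad list held 1.51 times as many member peaks as the Sol list, beside 1.40 times as many peaks in all. For EDL over Sol, the member ratio was 1.28 and the list ratio 1.05. When every list was cut to its 20000 best-scored peaks, the members had between 25 and 38 peaks, with Sol the lowest at 25 and EDL the highest at 38.

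**Figure D1:**
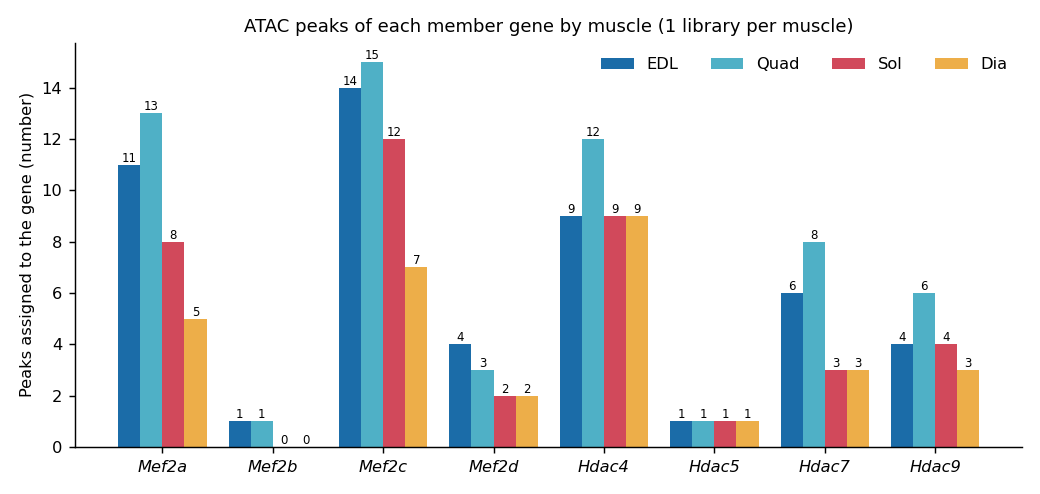
Bars give the number of ATAC peaks assigned to each of the 8 genes (vertical axis) in the single library of each muscle, with the number above each bar. Mef2c ranged from 7 peaks in Dia to 15 in Quad and Mef2a from 5 to 13, while Hdac4 kept 9 peaks in EDL, Sol and Dia and had 12 in Quad.

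All members but Hdac5, 7 of 8, had a higher number in Quad than in Sol, Mef2b included with 1 against 0. Hdac5 had equal numbers, and 0 members had fewer in Quad. Among the 20000 best-scored peaks of each list, Mef2b with 0 and Mef2c with 8 were also equal in these muscles. When peaks of any name were counted by overlap with the gene body, 6 of 8 members had a higher number in Quad, among them Hdac5 with 2 against 1, while Mef2a had 0 in both and Mef2c had 10 in Quad and 11 in Sol. Across the 17157 genes with a peak in any list, 45.7% had a higher number in Quad and 12.4% a lower number. The members' totals were large for the annotation: 99.7% of genes with a peak had fewer peaks over the 4 lists than Mef2c, 99.3% fewer than Hdac4 and 99.04% fewer than Mef2a. At the other end, only 11.9% had fewer than Mef2b and 26.8% fewer than Hdac5. The number differed by 3 or more between lists for 5 members (Mef2a, Mef2c, Hdac4, Hdac7 and Hdac9), a threshold passed by 18.4% of genes with a peak. These backgrounds over all genes were not matched for total peak number. At least 91.8% of genes with a peak had fewer peaks than each of these 5 members.

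Of the 98 Mef2 peaks, 49 were intergenic, 32 intragenic and 17 in promoters, and 77 lay upstream of the start site to which they were assigned. Mef2a held 33 of the 49 intergenic peaks, and without it 32 of 61 Mef2 peaks were intragenic and 16 intergenic. Of the 80 deacetylase peaks, 60 were intragenic, 9 intergenic and 11 in promoters, and 23 lay upstream. The intragenic share was 75% for the deacetylases and 52.5% for the Mef2 genes without Mef2a, beside 38.9% of all peaks in the 4 lists, of which 30.0% were intergenic and 31.1% in promoters. Hdac4 held 29 and Hdac9 16 of the 60 intragenic deacetylase peaks, and these shares were not matched for gene length. The deacetylases made up 40.0% of member peaks in EDL (95% Wilson interval 27.6 to 53.8), 45.8% in Quad (33.7 to 58.3), 43.6% in Sol (29.3 to 59.0) and 53.3% in Dia (36.1 to 69.8). These intervals, which cover counting error only, overlapped throughout. The median score percentile of all member peaks was 51.1 for EDL, 57.9 for Quad, 49.0 for Sol and 38.1 for Dia. When percentiles were taken among promoter peaks or among other peaks separately, the medians were 63.0, 62.6, 61.1 and 55.1 in the same order.

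**Figure D2:**
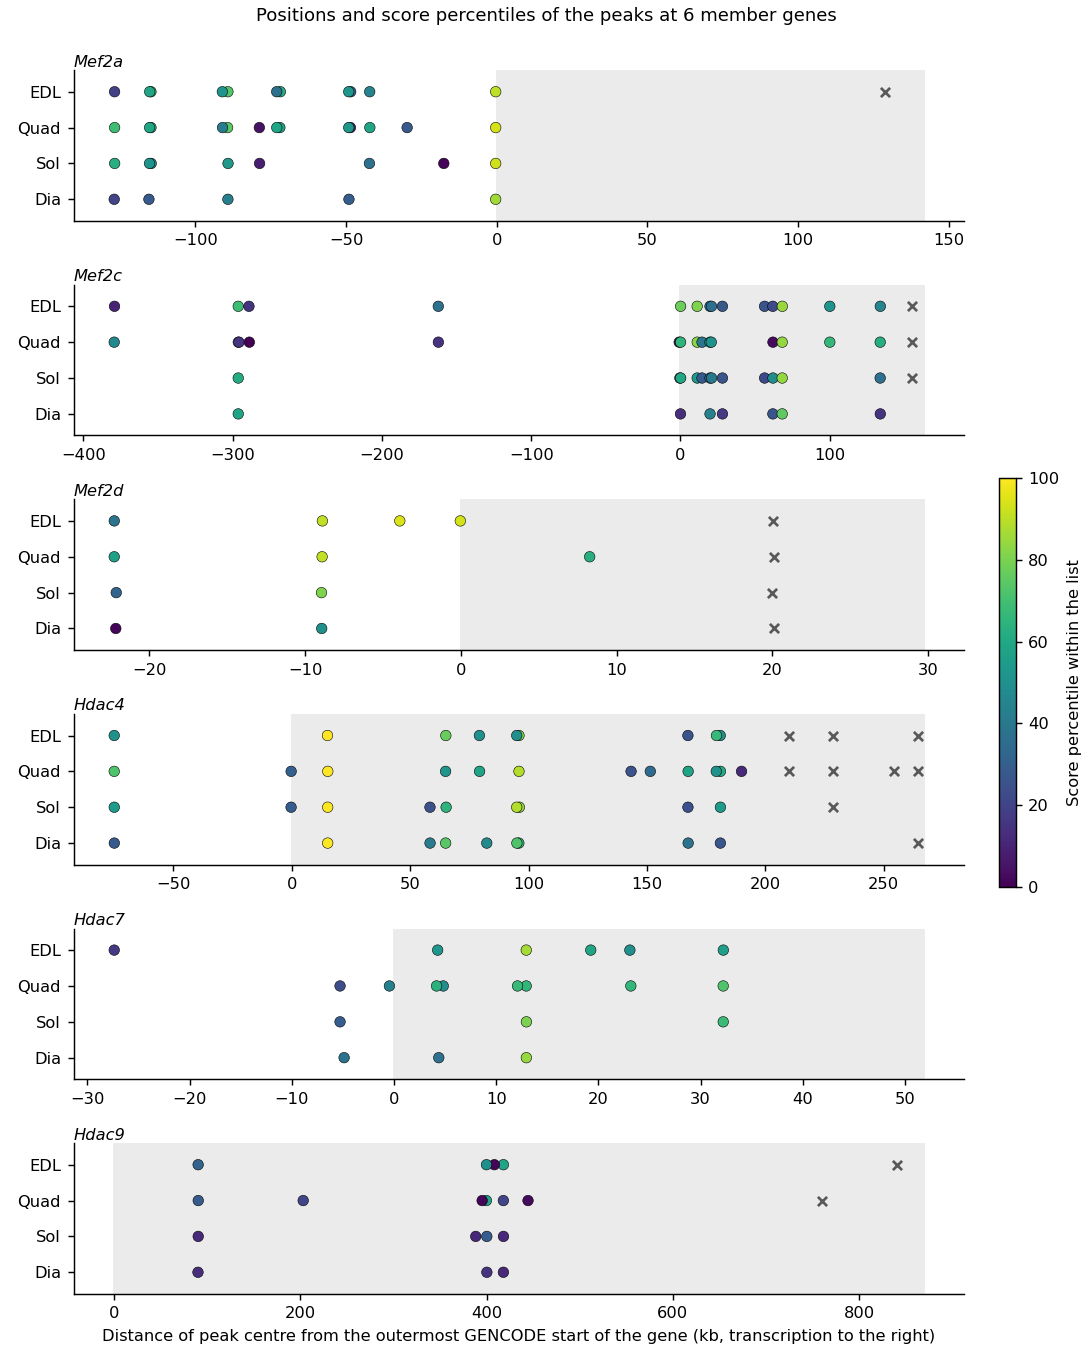
Each row is a muscle, and each filled point is a peak placed by its distance in kb from the outermost GENCODE start of the gene, coloured by its score percentile within the list. Grey spans are gene bodies and crosses are peaks inside them that the annotation gave to another gene. Mef2a peaks lie upstream of the gene, Hdac4, Hdac7 and Hdac9 peaks mostly within it, and the EDL row of Mef2d holds points at and just upstream of the start that the other rows lack.

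Mef2d, an activator that is abundant in adult muscle, differed between the lists at its start site. Its promoter peak, centred 33 bp upstream of the start and shown above, was listed in EDL only, with a score of 18.1 and a percentile of 93.6. The nearest peaks of any gene in the other lists lay 8103 bp (Quad), 8700 bp (Sol) and 8675 bp (Dia) away. A peak 3917 bp upstream was also listed in EDL only, with a score of 19.1 and a percentile of 94.5, and the nearest peaks of the other lists were 4787 to 4816 bp away. The highest of the lists' lowest scores was 3.63. A peak absent from a list says only that none was called there, and the signal below the authors' calls was not used here.

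Farther upstream the 4 muscles were alike in what was called. The intergenic region about 8.9 kb upstream of Mef2d held a peak in every list, with scores of 15.8 for EDL, 15.9 for Quad, 11.9 for Sol and 7.45 for Dia. Its percentiles were 90.6, 90.8, 80.8 and 49.7, so EDL and Quad were nearly equal and Dia was the lowest. A region about 22 kb upstream, which lies within the neighbouring gene Iqgap3, was called in every list, with Quad highest at percentile 56.8 and Dia lowest at 1.53. Quad alone had an intron 1 peak, 8268 bp downstream, at percentile 63.0. Inside the gene, an intron 8 region was called in every list at percentiles from 53.4 to 68.2. The authors' annotation assigned it to 1700113A16Rik, whose start was 15298 to 15417 bp away. A GENCODE start of Mef2d was nearer, with the peaks from 1 kb upstream to 100 bp downstream of it.

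Mef2c, the member required for muscle and heart development, had the most regions, 20. Of these 6 were called in every list, 3 in 3 lists, 4 in 2 lists and 7 in 1 list. The strongest was in the long first intron, 1346 to 1413 bp upstream of an internal start, with scores of 13.0 for EDL, 12.4 for Quad, 12.7 for Sol and 11.2 for Dia. Its percentiles, 84.8, 83.6, 83.7 and 75.1, differed little, and it lay 124 bp from a further GENCODE start of Mef2c. At the outermost start the spread was wider, with scores of 11.0 for EDL, 8.32 for Quad, 8.22 for Sol and 4.83 for Dia and percentiles of 77.6, 64.9, 59.4 and 13.2. Upstream of it, Quad alone had a peak at 841 bp, percentile 2.35, and Sol alone a peak at 391 bp, percentile 26.2. A promoter region at an internal start, also called in every list, followed another order. Its percentiles were 38.3 for EDL, 57.9 for Quad, 34.6 for Sol and 44.1 for Dia.

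Several Mef2c regions separated the lists. A first-intron peak about 8.4 kb upstream of an internal start was called in EDL, Quad and Sol at percentiles of 80.7, 82.1 and 53.7, and had no peak in Dia. The intron 3 region whose EDL peak is printed above was called in EDL at percentile 51.6 and in Quad at 66.6, and in neither Sol nor Dia. By contrast, first-intron peaks at 7.4 kb and at 13.2 kb from internal starts were called in EDL and Sol, the first also in Dia, but not in Quad, at percentiles no higher than 27.1. Far upstream, a region 296 kb from the gene was called in every list at percentiles from 58.4 to 70.5. The regions at 379 and 289 kb were each called in EDL and in Quad by neighbouring peaks that did not overlap, and no Sol or Dia peak with the Mef2c name lay farther upstream than 296249 bp.

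Mef2a, expressed widely and in adult muscle, had no peak of its own name inside the gene. All 37 of its peaks lay upstream, 4 of them in the promoter and 33 in the intergenic stretch between 17.6 and 127 kb from the start. The promoter peak was called in every list, with scores of 15.4 for EDL, 18.3 for Quad, 17.2 for Sol and 14.4 for Dia and percentiles of 90.05, 93.6, 92.7 and 85.9. A further 3 intergenic regions were called in every list. The region 89 kb upstream had percentiles of 73.4 for EDL, 74.6 for Quad, 53.7 for Sol and 42.9 for Dia. The most distal, 127 kb upstream, followed another order, with scores of 4.71 for EDL, 8.96 for Quad, 8.70 for Sol and 5.24 for Dia. EDL and Quad alone shared 4 Mef2a regions, at 48, 72, 73 and 91 kb, including the region whose Quad peak with E-boxes is printed above, where EDL was at percentile 61.8 and Quad at 57.9.

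Mef2b, which is known mainly from lymphoid cells, had 2 peaks, both weak. The EDL peak was 90 bp upstream of the RefSeq start at percentile 13.7, and the Quad peak was in intron 1 at percentile 4.70. Sol and Dia listed none. At the outermost GENCODE start of Mef2b, which lies beside other genes, every list had a peak at percentiles from 89.0 to 92.4 that the annotation gave to Borcs8 or, in Dia, to Rfxank, and a shared promoter cannot be divided between these genes here.

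Hdac4, a repressor of MEF2 that also mediates responses to denervation, had the highest promoter peak of the members in every list. Its scores were 35.3 for EDL, 38.5 for Quad, 35.7 for Sol and 30.7 for Dia, and its percentiles ran from 99.6 to 99.9. In all, 6 of its 15 regions were called in every list. Among them, the intron 2 region printed above, about 80.6 kb downstream of the start, had percentiles of 82.4 for EDL, 88.5 for Quad, 83.7 for Sol and 66.8 for Dia. A second intron 2 region less than 1 kb away was called in EDL at 49.7, in Sol at 88.6 and in Dia at 71.9, and Quad had no peak there although Quad had the longest list. The region 50 kb downstream was also lowest in Quad, at 52.1, beside 76.7 in EDL, 64.6 in Sol and 74.1 in Dia.

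Other Hdac4 regions lay at further start sites or in single lists. Quad and Sol shared a peak 15.6 kb upstream of the RefSeq start, at percentiles of 30.2 and 29.3, whose region was centred 262 bp upstream of the outermost GENCODE start of Hdac4. A Dia-only peak in intron 2, at percentile 47.6, was centred 10 bp from another GENCODE start. Sol and Dia shared an intron 2 region 43 kb downstream at percentiles of 24.8 and 41.7. A further 3 intronic regions were called in Quad only, at percentiles between 11.6 and 34.4. Inside the 3′ part of Hdac4, 9 peaks from 4 regions were assigned to Twist2, the downstream neighbour.

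Hdac5, the deacetylase best known as a target of exercise-activated kinases, had a single assigned peak in each list, at its promoter. Scores were 15.4 for EDL, 14.0 for Quad, 12.5 for Sol and 12 for Dia, and percentiles were 90.05, 87.4, 83.1 and 78.4. A peak of similar height lay in intron 4 of Hdac5 in every list, with scores of 16.5 for EDL, 15.4 for Quad, 15.3 for Sol and 15.3 for Dia. The annotation assigned it to the microRNA gene Mir8101, as it did a Quad-only intron 3 peak at percentile 80.4. By name alone these peaks do not count for Hdac5.

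Hdac7, which is prominent in endothelium, had 11 regions, of which 1 was called in every list. That region, over the first exon 202 to 223 bp downstream of a start, had scores of 13.7 for EDL, 8.45 for Quad, 11.8 for Sol and 13.8 for Dia. Quad was the lowest there, at percentile 65.8 beside 86.4, 80.3 and 84.3, and it was the only list with peaks 644 bp and 444 bp upstream of starts. An intron 1 region 2.6 kb downstream of an internal start was called in EDL, Quad and Sol at percentiles of 56.1, 72.6 and 67.9. Among 5 endothelial markers, peaks numbered 29 for EDL, 30 for Quad, 29 for Sol and 18 for Dia, beside 6, 8, 3 and 3 for Hdac7, and the part of endothelial cells in the Hdac7 peaks was not tested.

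Hdac9, whose short form is a MEF2-binding repressor without the catalytic domain, had mostly weak peaks. The median percentile of its 17 peaks was 15.0 and the highest was 59.0. No list had a peak at the outermost start, and a promoter peak at an internal start was listed in Sol only, at percentile 11.4. Of its regions, 2 were called in every list, both intronic. The region about 30 kb downstream of an internal start had scores of 7.79 for EDL, 4.61 for Quad, 4.30 for Sol and 4.73 for Dia, so EDL stood above the other lists. Near 12 kb downstream, EDL and Quad shared a region at percentiles of 49.7 and 59.0, and Sol and Dia shared a different, neighbouring region at 29.3 and 15.0. The peaks of these neighbouring regions lay only 122 to 287 bp apart.

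**Figure D3:**
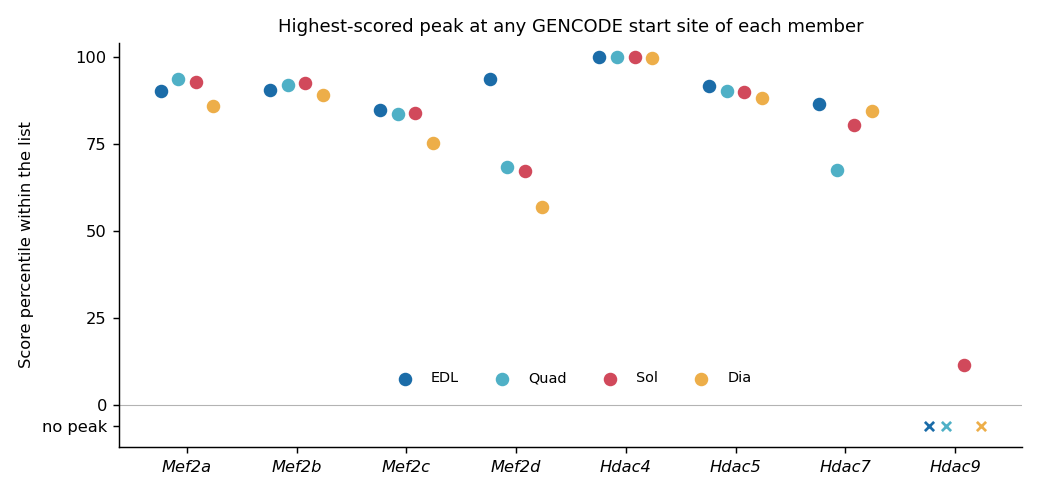
Points give the score percentile within each list (vertical axis) of the highest-scored peak from 1 kb upstream to 100 bp downstream of any GENCODE start of each gene, whatever gene name it carried, and crosses mark lists with no such peak. Hdac4 lies at the top in every muscle, Mef2d is at 93.6 in EDL and between 56.8 and 68.2 elsewhere, and Hdac9 has a peak in Sol only.

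By the authors' annotation, 4 of the 8 genes (Mef2a, Mef2c, Hdac4 and Hdac5) had a promoter peak in every list, beside 40.8% of all genes with a peak. The promoter peaks of members numbered 8 for EDL, 9 for Quad, 6 for Sol and 5 for Dia. These were 16%, 15.3%, 15.4% and 16.7% of the members' peaks, below the promoter shares of the whole lists, 30.7%, 25.5%, 31.9% and 41.3%. The shares were not matched for the number of peaks per gene. Sol peaks 124 and 135 bp downstream of Mef2c starts were annotated as 5′ UTR, where the EDL and Quad peaks counted as promoter. With peaks centred within 1 kb of the start instead, the promoter peaks numbered 9 for EDL, 10 for Quad, 9 for Sol and 6 for Dia. When a peak of any name at any GENCODE start of a member was counted, an alternative chosen after the data were seen, they numbered 13, 15, 14 and 11. Under that count, 7 of the 8 genes had such a peak in every list, beside 52.5% of 16810 genes with a peak and a GENCODE entry. Mef2d was among the 7, and in Quad, Sol and Dia this rested on the intron 8 peak alone. Mef2b was also among the 7, but its only such peak carried the name Borcs8 in Quad and Sol and Rfxank in Dia. That shared promoter cannot be divided between these genes here.

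Sharing across the muscles was then compared with all merged regions. Of the 77 member regions, 22 (28.6%, 19.7 to 39.5) were called in all 4 lists, close to the 26.9% of all regions. Regions called in 1 list numbered 29 (37.7%, 27.7 to 48.8), beside 42.6% of all regions. Those called in Quad alone made up 20.8% of member regions (16), in EDL alone 10.4% (8), in Sol alone 3.90% (3) and in Dia alone 2.60% (2). Over all regions these shares were 22.7%, 6.71%, 8.62% and 4.61%, so Quad led in both. The direction differed between the classes. Of 64 member regions without a promoter peak, 17 (26.6%, 17.3 to 38.5) were called in every list, beside 16.0% of all such regions. Of 13 with a promoter peak, 5 (38.5%, 17.7 to 64.5) were, beside 66.1%. Regions of a gene are not independent of each other, and joining only peaks that overlapped by 50% of each lowered the members' share to 18.2% and that of all regions to 19.8%. Joining peaks within 500 bp raised these shares to 34.3% and 30.5%. Some regions of a single list were close neighbours, as at Mef2c, where EDL-only and Quad-only peaks lay 7 bp and 52 bp apart.

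**Figure D4:**
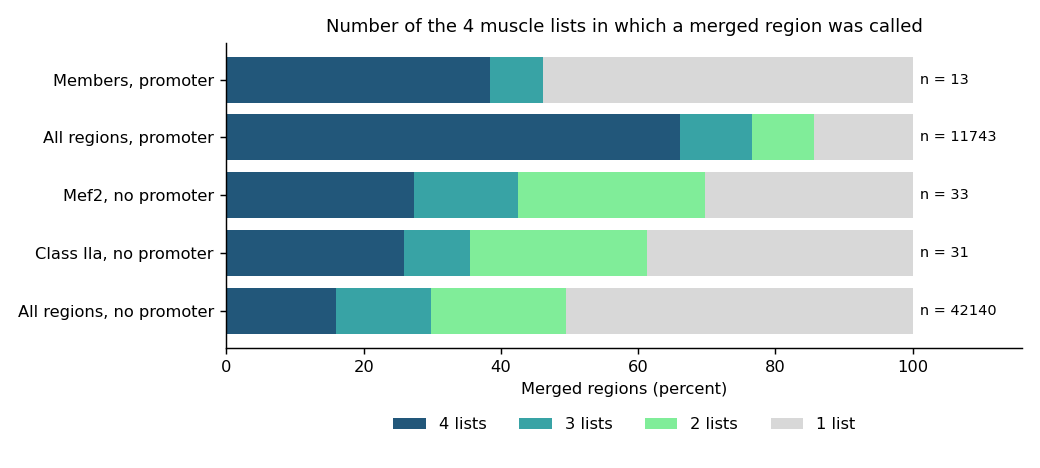
Stacked bars give the percentage of merged regions (horizontal axis) called in 4, 3, 2 or 1 of the muscle lists, with the number of regions at the right. The share in all 4 lists is 38.5% for member regions with a promoter peak beside 66.1% of all such regions, and 27.3% for Mef2 and 25.8% for class IIa regions without a promoter peak beside 16.0%.

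Between pairs of muscles, EDL and Quad shared 39 member regions, 78.0% of the 50 in EDL and 66.1% of the 59 in Quad. Over all regions these shares were 80.8% and 60.4%. EDL and Sol shared 30, which was 60% of the EDL regions and 76.9% of the 39 in Sol, beside 68.3% and 71.5% over all regions. Quad and Sol shared 31, which was 52.5% of Quad and 79.5% of Sol, beside 54.0% and 75.6%. Dia had the fewest, 30 regions, of which 26 (86.7%) were shared with EDL, 26 (86.7%) with Sol and 24 (80%) with Quad, beside 77.3%, 77.2% and 80.7% of all Dia regions. Regions called in EDL and Quad but in neither Sol nor Dia numbered 10 (13.0% of member regions), beside 8.05% of all regions. Of these, 4 were at Mef2a, 2 at Mef2c, 2 at Hdac4, 1 at Hdac7 and 1 at Hdac9. Sol and Dia shared 2 regions that EDL and Quad lacked, at Hdac4 and Hdac9, which was 2.60% of member regions beside 1.20% of all regions. The Hdac9 region of Sol and Dia lay beside the Hdac9 region of EDL and Quad counted above, with 122 to 287 bp between their peaks. At that place every list had a peak, and only the overlap was missing.

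Motifs were searched on both strands of the merged regions, and a match is a description of the letters only. The MEF2 motif was found in 9 of 77 member regions (11.7%, 6.27 to 20.7), beside 4.38% of all merged regions on assembled chromosomes. The matches were uneven, with 7 of 36 deacetylase regions (19.4%, 9.75 to 35.0) and 2 of 41 Mef2 regions (4.88%, 1.35 to 16.1). Without promoter regions the member share was 12.5%, beside 5.24%. Hdac7 held 4 of the 9 regions, Mef2c 2, and Hdac4, Hdac5 and Hdac9 1 each, while no region of Mef2a, Mef2b or Mef2d had a match. All 9 regions were called in EDL, 8 in Quad and 4 each in Sol and Dia, beside 50, 59, 39 and 30 of all 77 member regions. For regions of all genes with a MEF2 match, the lists that called them are not given here. The distribution of the 9 therefore has no motif-matched background. A joined region is wider than its peaks, and a list's own peak held a match in 8 of the 9 regions for EDL, 6 for Quad, 4 for Sol and 4 for Dia.

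The 10 matches are set side by side below, each with 10 bases on either side and on the strand of the match, to show how far the core recurs. Each line names the lists whose own peak holds the match. The core CTAAAAATAG, counted with its reverse complement, made up 4 of the 10, at Hdac4, Hdac5 and both Mef2c sites of a single peak.
Hdac4 chr1:92270662-92270691 plus strand, in the peaks of EDL, Quad, Sol, Dia: tttccagaacCTAAAAATAGctgctgttta
Hdac5 chr11:102230173-102230202 plus strand, in the peaks of EDL, Quad, Sol, Dia: cgaccccgagCTAAAAATAGgctcagaccc
Hdac7 chr15:97812341-97812370 plus strand, in the peaks of EDL, Quad, Sol: ggtgcaggagCTATTTATAGctcaccagca
Hdac7 chr15:97821348-97821377 minus strand, in the peaks of EDL, Quad: gtgtcaagagCTAAAAATAActactctaga
Hdac7 chr15:97825266-97825295 plus strand, in the peaks of EDL: ccgactgctgCTATTTTTAAccctccagct
Hdac7 chr15:97840115-97840144 plus strand, in the peaks of EDL, Dia: gcctagggggCTATAAATAAccagctaaga
Hdac9 chr12:34517223-34517252 plus strand, in the peaks of EDL: aatgctctttCTATAAATAAtcattccagt
Mef2c chr13:83565985-83566014 plus strand, in the peaks of Quad, Sol, Dia: agggctccaaCTATTTATAGaactgagtaa
Mef2c chr13:83603965-83603994 plus strand, in the peaks of EDL: tggcagttgcCTAAAAATAGaaaactgctt
Mef2c chr13:83603987-83604016 plus strand, in the peaks of EDL, Quad: aactgcttaaCTAAAAATAGcctggctctc

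At Hdac5 the match lies within the printed promoter, just upstream of the start. A MEF2 match was present in 1.28% of the merged regions with a promoter peak, and in 1.86% of all 300-base RefSeq promoter windows. The intron 3 peak of Mef2c in EDL held a pair of matches in its first bases, of which the Quad peak held 1, and another Mef2c match lay in a first-intron region called in every list, at percentiles from 2.35 in Quad to 49.0 in Sol, and outside the EDL peak of that region.

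CAGCTG was found in 22 member regions (28.6%, 19.7 to 39.5), beside 23.4%, with 7 of 15 Hdac4 and 6 of 14 Mef2a regions among them. The other genes had 4 of 11 (Hdac7), 3 of 5 (Mef2d), 1 of 2 (Mef2b), 1 of 20 (Mef2c), 0 of 9 (Hdac9) and 0 of 1 (Hdac5). In 200 bp windows, added after the data were seen, the E-box share was 22.1% beside 20.4%. The NFAT core TGGAAA was found in 13 (16.9%, 10.1 to 26.8), beside 21.8%. In windows of 200 bp around the region centres, an alternative added for this motif after the data were seen, it was in 8 (10.4%, 5.36 to 19.2), beside 18.1%, and in 2 of 41 Mef2 regions (4.88%, 1.35 to 16.1) instead of 6 (14.6%, 6.88 to 28.4). The AP-1 site TGACTCA was found in 3 (3.90%, 1.33 to 10.8), beside 8.41%. The extended monomer site of the oestrogen-related receptors (ERR) was in none of the 77, beside 0.496% of all regions, and its interval reached 4.75%. The E-box region upstream of Mef2a printed above held 4 copies of CAGCTG over its full length, 3 of them in the Quad peak shown.

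**Figure D5:**
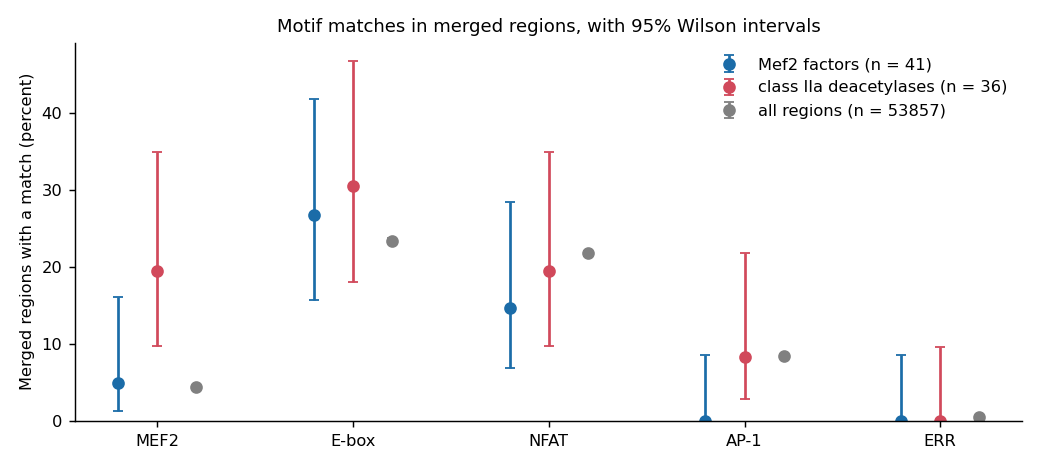
Points give the percentage of merged regions with at least 1 match (vertical axis) for 5 motifs, in 41 Mef2 regions, 36 class IIa regions and all 53857 regions on assembled chromosomes, with 95% Wilson intervals for counting error. The class IIa interval for MEF2, 9.75 to 35.0%, lies above the 4.38% of all regions, and the remaining member intervals for whole regions include the share of all regions. Of the 7 class IIa regions with a MEF2 match, 4 were at Hdac7. Regions of a gene are not independent, which the interval does not cover.

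The pathway around this switch was taken as 24 signalling genes and 9 partners. All 33 had a peak in at least 1 list, and 21 had a promoter peak in every list, against the background of 40.8%. The signalling genes had 77 peaks for EDL, 100 for Quad, 77 for Sol and 47 for Dia, and the partners 13, 21, 12 and 12. The number differed by 3 or more between lists for 13 genes, against a background of 18.4% that was not matched for total peak number. Of the 33 genes, 15 had a higher number in Quad than in Sol and 5 a lower number, near the 45.7% and 12.4% of all genes with a peak.

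Among the kinases that phosphorylate class IIa deacetylases, Camk2d had 9 peaks for EDL, 12 for Quad, 7 for Sol and 4 for Dia, and Camk2a had 5, 4, 2 and 1. Camk2b went the other way between EDL or Quad and Sol, with 6, 6, 8 and 2. Prkd1, a protein kinase D gene, had 1 peak for EDL, 5 for Quad, 4 for Sol and 1 for Dia, and its promoter peak was listed in every muscle but EDL. The salt-inducible kinases Sik1 and Sik3 had 12, 14, 9 and 6 and 7, 8, 5 and 3. The AMPK subunit gene Prkaa2 had 3, 5, 6 and 3, and Mapk14, the p38 kinase that activates MEF2, had 1, 5, 2 and 1. These counts put Sol above Quad for Camk2b and Prkaa2 and below it for the others named.

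The 14-3-3 genes, whose proteins hold the phosphorylated deacetylases in the cytoplasm, were mixed. Ywhae had 5 peaks for EDL, 5 for Quad, 2 for Sol and 1 for Dia, and Ywhaq had 7, 7, 3 and 3, whereas Ywhaz had 5, 6, 8 and 4. The remaining 14-3-3 genes of the list differed by less than 3 between lists. In the same order, Ywhab had 1, 1, 1 and 1 peaks, Ywhag 2, 3, 3 and 2, and Ywhah 2, 2, 1 and 3. The export receptor gene Xpo1 had a promoter peak at percentiles from 98.7 to 99.7 in every list. Of the partners, the acetyltransferase gene Crebbp had 2 peaks for EDL, 5 for Quad, 1 for Sol and 1 for Dia, and Cabin1, a MEF2 corepressor, had 3, 5, 2 and 3. Hdac3, the catalytic partner of the class IIa proteins, had 1 peak in every list, at its promoter.

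Mef2c, with the most regions, was used to find genes with a similar profile of peak numbers. Among 247 genes whose total was within 33.3% of its own, the nearest by Euclidean distance over the 4 lists were Rftn1 with 15 peaks for EDL, 15 for Quad, 11 for Sol and 7 for Dia (distance 1.41), Umps with 13, 16, 12 and 6 (1.73) and Sox6 with 14, 17, 12 and 8 (2.24). Mef2c itself had 14, 15, 12 and 7. With 4 values per gene, this likeness describes these lists only.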

How the data were processed

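ATAC-seq was performed on frozen, pulverised muscle. The authors aligned reads to mm10 with Bowtie2, kept at most 1 tag per start position, and used HOMER to call fixed-width peaks in each library and to assign each to its nearest transcription start, with promoters from 1 kb upstream to 100 bp downstream. The deposited Peak Score is a signal, a tag count scaled by library size. The Tn5 offset and mitochondrial filtering were not given in the sources used here.

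Peaks were taken by gene name and joined across lists where they shared at least 1 bp. Percentiles were ranks of scores within a list. Below a score of 10, all scores were whole multiples of a step (tolerance 0.0052), from which depth was inferred. Shares carry 95% Wilson intervals. Gene bodies came from GENCODE vM21, sequences and promoter windows from RefSeq GRCm38.p6. The MEF2 motif was CTA, 4 bases of A or T, TA, and G or A. Python 3.11.15 and pandas 2.3.3 were used, and region joining and motif search were tested on simulated data. The text names all members, pathway genes whose peak number differed by 3 or more between lists, and the 3 genes most like the member with most regions. The other pathway genes named, Xpo1, Hdac3, Ywhab, Ywhag and Ywhah, were chosen after their values were seen. A further partner gene is not reported here and is left out of the pathway counts. The members and lists were chosen with earlier results of these data known.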

Additional observations from a re-analysis of the deposited data

How the results depend on the processing

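No replicate could be left out, and no paired analysis was possible because the muscles had a single library each. Of the alternative values for the main results, 42 of 60 stayed within 1.5 times the main count or within the counting interval of the main value. With peaks within 50 kb of the start only, members had 30 peaks in EDL, 33 in Quad and 18 in Dia. With the 20000 highest-scored peaks per list, they had 35 in Quad and 25 in Sol, and the median percentile fell to 37.1 in EDL and 29.2 in Quad, since the weaker peaks were no longer ranked below them. Ranked among promoter or other peaks separately, the medians rose to 63.0 (EDL), 62.6 (Quad), 61.1 (Sol) and 55.1 (Dia). When 50% of each peak had to overlap, 18.2% of member regions were called in all 4 lists. By overlap with gene bodies, the deacetylase share was 59.5% in EDL and 67.4% in Quad. That count left out peaks upstream of the genes, those of Mef2a among them, and took in peaks inside the genes that carried another name. Under it the Mef2c difference between Quad and Sol turned from 3 more to -1, and that of Mef2a went from 5 to 0. With any GENCODE start and any gene name, an alternative chosen after seeing the data, promoter peaks numbered 13 (EDL), 15 (Quad), 14 (Sol) and 11 (Dia). For single members, 12 of 16 differences between Quad and Sol changed in size, some of them to 0, without turning. In 200 bp windows, added after seeing the data for the motifs other than MEF2, 1 of 12 shares left its counting interval, NFAT in Mef2 regions at 4.88%. A peak missing from a list may lie below that library's threshold.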

Other observations

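Peaks inside the gene bodies of the members were counted whatever name they carried. There were 130, of which 105 had a member's name and 25 the name of another gene. Conversely, 73 of the 178 peaks with a member's name lay outside the GENCODE gene bodies.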
